A study of Mus musculus with 15 samples.

Results

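The serum amyloid A, orosomucoid and pentraxin genes encode plasma proteins that the liver makes in quantity during inflammation. They were followed here as 9 genes of mouse liver, chosen by symbol from the mRNA table: Saa1, Saa2, Saa3, Saa4, Orm1, Orm2, Orm3, Apcs and Crp. The table holds 21949 genes, and all 9 were found in it with 1 transcript each. All 9 also passed the filter on low values, at least 1 FPKM in at least 2 libraries, that left 11557 genes to test, and all 9 were at or above 1 FPKM in every library.

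The livers came from wild type male C57BL/6 mice aged 40 weeks (one label field gives 10 months). Nor mice received PBS at 2 weeks of age and ate chow. NCD mice received diethylnitrosamine (DEN), a chemical that causes liver tumours, at the same age and also ate chow. H1D, H2D and H3D mice received DEN too and ate a high-fat diet with 60% of energy from fat. They were sons of F0, F1 and F2 mothers, in that order, of a line whose females ate the high-fat diet between 1 and 3 months of age. The comparisons with NCD therefore join the mouse's own diet and its ancestry, and no group had the diet without DEN. Each generation was 1 cohort, so ancestry and cohort cannot be told apart.

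Each group gave 2 pools, made from the RNA of 4 to 8 animals per group, and so 10 libraries of long RNA depleted of ribosomal RNA. The spread given below is between pools, not between animals, and the labels do not say which animals went into a pool. Values are FPKM, a fragment count divided by transcript length and by the size of the library, so levels of different genes are compared per length. The number of reads behind them is unknown. The summed FPKM of the mRNA table ran from 568823 to 784456 and was lowest in the H3D pools. From 10263 to 11169 genes had at least 1 FPKM per library, and the pools of a group correlated over genes at 0.978 to 0.991. Markers of hepatocytes, such as albumin and transthyretin, summed to between 53058 and 93673 FPKM in every pool, and 0 of the 9 hepatocyte markers were at 0 in all pools.

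In textbook biology, interleukin-1 and tumour necrosis factor act through NF-kB, and interleukin-6 and related cytokines act through STAT3. Together with C/EBP factors these signals switch on the acute phase genes of the hepatocyte. Saa1 and Saa2 are the acute phase serum amyloid A proteins, apolipoproteins that ride on high-density lipoprotein. Amyloid A deposits derive from acute phase serum amyloid A, though not necessarily from both proteins. Saa3 is made mainly outside hepatocytes in the mouse, for example by macrophages and fat cells, and Saa4 is the constitutive member of the family. Orosomucoids, also called alpha-1-acid glycoproteins, are lipocalins that carry small lipophilic molecules. Apcs encodes serum amyloid P component, the main acute phase pentraxin of the mouse, whereas Crp, C-reactive protein, responds strongly in humans and only weakly in mice.

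The 9 genes lie in 3 neighbourhoods of GRCm38. Saa3 (chr7:46711998-46719615), Saa4 (chr7:46727992-46732603), Saa1 (chr7:46740497-46743181) and Saa2 (chr7:46751833-46754313) follow each other. Orm1 (chr4:63344556-63348163), Orm3 (chr4:63356069-63359506) and Orm2 (chr4:63362449-63365877) form the second cluster. Crp (chr1:172698056-172699966) and Apcs (chr1:172893961-172895054) share a stretch of chromosome 1.

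The 250 bases before the start are shown for 3 serum amyloid A genes and 2 orosomucoid genes, as a description. Whether these sequences bear on the changes reported below was not tested. They are RefSeq promoters of GRCm38.p6, which were matched by symbol for 8 of the 9 genes, with the first entry of each symbol taken. Orm1 had no entry and was not searched. The start is that of the promoter entry and can differ from the end of the gene span given above. The Saa1 and Orm3 windows overlap those spans in part, and the Saa3 window, not printed, lies inside its span. Capitals mark letters that fit a searched motif. The motifs were a C/EBP pattern (TTNNGCAA), a STAT pattern (TTCNNNGAA) and the NF-kB consensus, searched on both strands.
Saa1, chr7:46742981-46743230, minus strand: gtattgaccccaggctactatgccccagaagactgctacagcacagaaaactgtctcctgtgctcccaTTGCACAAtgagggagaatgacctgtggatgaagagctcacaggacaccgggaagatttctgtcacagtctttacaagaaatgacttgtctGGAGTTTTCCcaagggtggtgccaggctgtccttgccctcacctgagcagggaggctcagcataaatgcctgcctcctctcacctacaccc
Saa2, chr7:46751583-46751832, plus strand: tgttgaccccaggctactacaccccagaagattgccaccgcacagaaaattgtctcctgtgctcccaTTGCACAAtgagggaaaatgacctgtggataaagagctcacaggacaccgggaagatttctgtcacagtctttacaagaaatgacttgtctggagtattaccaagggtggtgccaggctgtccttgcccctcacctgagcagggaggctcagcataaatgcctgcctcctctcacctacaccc
Saa4, chr7:46732604-46732853, minus strand: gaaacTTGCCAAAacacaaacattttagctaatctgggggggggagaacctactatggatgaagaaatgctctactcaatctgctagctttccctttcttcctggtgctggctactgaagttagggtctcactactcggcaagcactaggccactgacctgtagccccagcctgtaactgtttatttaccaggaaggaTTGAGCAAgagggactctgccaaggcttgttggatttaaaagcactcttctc
Orm2, chr4:63362199-63362448, plus strand: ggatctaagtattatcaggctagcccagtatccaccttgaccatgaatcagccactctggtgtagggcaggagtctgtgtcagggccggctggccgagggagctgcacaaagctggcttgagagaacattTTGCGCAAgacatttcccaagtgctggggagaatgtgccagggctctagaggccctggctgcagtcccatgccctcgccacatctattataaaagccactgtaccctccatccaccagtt
Orm3, chr4:63355908-63356157, plus strand: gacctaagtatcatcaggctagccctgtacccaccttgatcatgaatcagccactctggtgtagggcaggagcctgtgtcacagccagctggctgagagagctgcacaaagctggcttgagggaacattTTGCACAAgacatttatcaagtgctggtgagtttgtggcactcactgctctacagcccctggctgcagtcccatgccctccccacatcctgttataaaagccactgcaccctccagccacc

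The Saa1 and Saa2 stretches were 94.8% identical, with 238 of 251 aligned columns the same, 11 substitutions and 2 gap columns. Both hold the C/EBP match TTGCACAA, which begins 182 bases before the start of Saa1 and 183 bases before that of Saa2. The Saa1 stretch also holds an NF-kB match, GGAGTTTTCC, and the Saa2 stretch has none. The Saa4 stretch was 46.3% identical to that of Saa1 and has 2 C/EBP matches, TTGCCAAA and TTGAGCAA. Orm2 and Orm3 were 85.5% identical, with TTGCGCAA in the first and TTGCACAA in the second. Of the members not printed, Saa3 has TTATGCAA and the NF-kB match GGATTGCTCC, Apcs has the STAT match TTCTAGGAA, and Crp has none of these matches. The C/EBP pattern occurred in 9.56% of 32851 RefSeq promoter windows, the STAT pattern in 7.02% and the NF-kB consensus in 23.2%.

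Saa1 and Saa2 showed the widest range of the 9 genes. For Saa1 the Nor pools read 55.0 and 72.5 FPKM, the NCD pools 51.0 and 84.3, the H1D pools 113 and 227, the H2D pools 3479 and 7849 and the H3D pools 788 and 2378. The Saa2 values were 24.2 and 35.2 FPKM for Nor, 35.2 and 56.0 for NCD, 55.7 and 152 for H1D, 3639 and 9429 for H2D and 696 and 2538 for H3D. For both genes every H2D pool lay above every H3D pool, every H3D pool above every H1D pool, and the Nor and NCD pools overlapped. The highest library exceeded the lowest 154-fold for Saa1 and 390-fold for Saa2. In its library, Saa2 ranked 7th and 21st by FPKM in H2D, against 1192nd and 1798th in NCD.

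**Figure D1:**
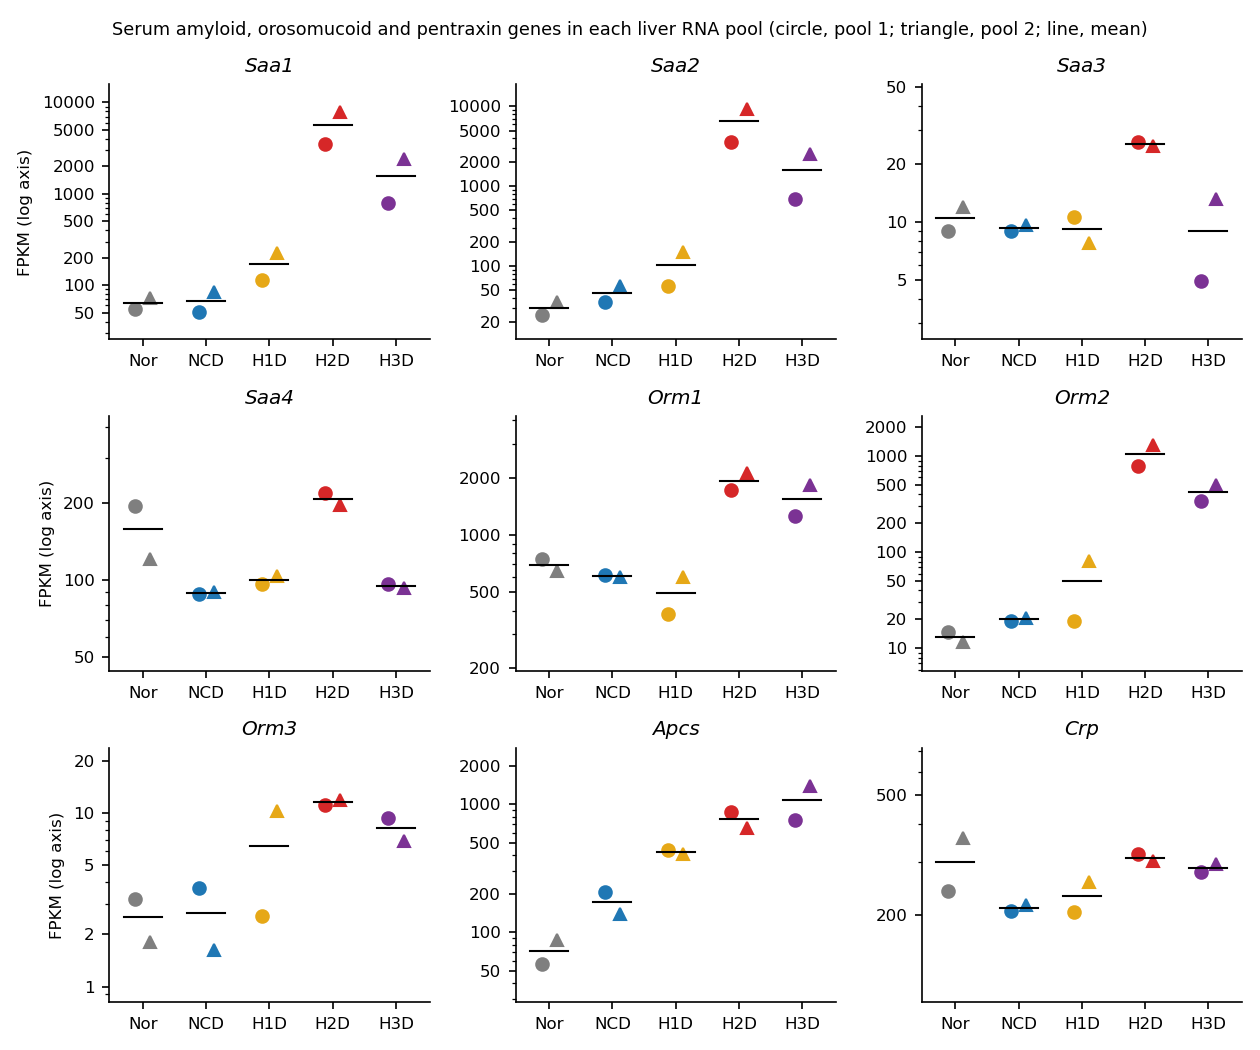
FPKM of the 9 genes on log axes in the 5 groups, with pool 1 as a circle, pool 2 as a triangle and the group mean as a line. Saa1, Saa2 and Orm2 stand far higher in H2D and H3D than in the other groups, mean Apcs climbs from Nor to H3D, and Crp stays between 204 and 361 FPKM.

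H2D against NCD gave the widest difference. On the log2(FPKM + 0.5) scale, with limma's moderated test and a call at a Benjamini-Hochberg adjusted p under 0.05, Saa2 rose by 7.03 ± 0.72 (SE, adjusted p = 0.00468). Saa1 rose by 6.31 ± 0.60 (adjusted p = 0.00468). The mean Saa1 level was 67.7 ± 23.6 FPKM in NCD and 5664 ± 3090 in H2D (SD, n = 2 pools each), a ratio of 83.7. For Saa2 the means were 45.6 ± 14.7 and 6534 ± 4094 FPKM, a ratio of 143. By size of change Saa2 came first and Saa1 second among the 11557 genes tested.

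In H3D against NCD, limma gave a rise of 4.37 ± 0.60 on the log2 scale for Saa1 (adjusted p = 0.00376) and of 4.89 ± 0.72 for Saa2 (adjusted p = 0.00476). The ratio of means was 23.4 for Saa1 and 35.5 for Saa2. Both calls, in H2D and in H3D, held in each of the 20 other settings that gave a value for these genes, including the loss of any single pool. Saa1 read 1.28 ± 0.60 higher on the log2 scale in H1D than in NCD, and Saa2 1.04 ± 0.72, and neither passed the test (limma adjusted p = 0.326 and 0.512).

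The pools of a group differed far more for these genes than for most. The H3D pools stood 3.02-fold apart for Saa1 and 3.65-fold apart for Saa2, and the H2D pools 2.26-fold and 2.59-fold. On the log2 scale the Saa2 difference in H3D was 1.87, while the median over all tested genes was 0.145. In all 5 groups pool 2 was the higher for both genes, although the labels do not say that pools of the same number belong together. Orm2 had the widest gap among the 9 genes, 2.05 on the log2 scale in H1D, where Orm3 also stood 1.82 apart. Of 45 combinations of gene and group, 33 lay above the median of all tested genes.

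**Figure D2:**
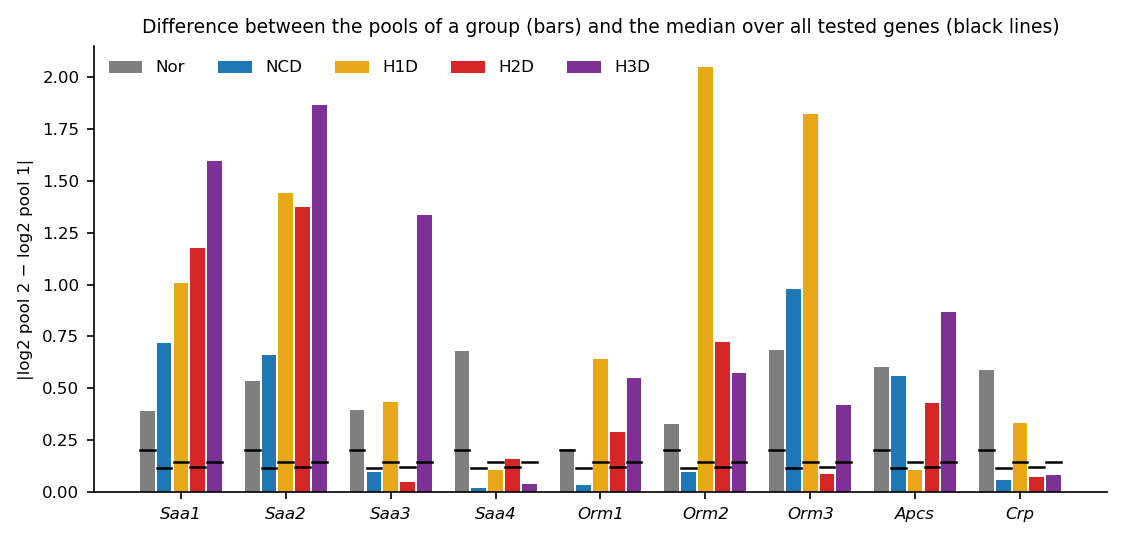
Absolute log2 difference between the pools of each group for the 9 genes, with the median over all tested genes of that group as a black line. Saa1 and Saa2 reach 1.59 and 1.87 in H3D, Orm2 and Orm3 reach 2.05 and 1.82 in H1D, and all-gene medians stay between 0.116 and 0.202.

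The balance of Saa1 and Saa2 also moved. Saa2 made up 30.5% and 32.7% of their summed FPKM for the Nor pools, 40.8% and 39.9% for NCD, 33.0% and 40.1% for H1D, 51.1% and 54.6% for H2D and 46.9% and 51.6% for H3D. Every H2D and H3D pool was above every pool of the other groups. The genes are near-identical copies, and how reads shared between them were counted is not given in the sources used here, so the split between them is uncertain. Their sum does not depend on that split, though it could still depend on whether shared reads were kept. It rose by 6.65 on the log2 scale in H2D against NCD (limma adjusted p = 0.00502) and by 4.61 in H3D against NCD (adjusted p = 0.00421). The sum was 5.45 higher in H2D and 3.41 higher in H3D than in H1D, neither called (limma adjusted p = 0.0521 and 0.0786).

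Saa4, the constitutive member between Saa3 and Saa1, moved less and in another order. For Saa4 the Nor pools read 195 and 121 FPKM, the NCD pools 88.1 and 89.5, the H1D pools 96.3 and 104, the H2D pools 220.0 and 197 and the H3D pools 96.3 and 93.5. The H2D pools were the only high ones among the DEN groups, and the H3D pools sat just above those of NCD. Saa4 fell by 0.79 ± 0.19 on the log2 scale in NCD against Nor (limma adjusted p = 0.0344) and rose by 1.22 ± 0.19 in H2D against NCD (adjusted p = 0.0177). The difference between H3D and NCD was 0.09 ± 0.19 (adjusted p = 0.788). The rise in H2D was lost without either NCD pool or either H2D pool, with adjusted p up to 0.125.

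Saa3 was low throughout. The Saa3 values were 8.99 and 12.0 FPKM for Nor, 9.01 and 9.68 for NCD, 10.6 and 7.74 for H1D, 25.9 and 24.9 for H2D and 4.91 and 13.1 for H3D. Its H2D pools stood above all others, but the difference from NCD, 1.40 ± 0.37 on the log2 scale, did not pass the test (limma adjusted p = 0.0863). It was called without either H3D pool, the lowest of which was 4.91 FPKM, and with H2D and NCD fitted alone (adjusted p = 0.00300). Fat cell markers, one known source of Saa3 in other tissues, were low: 4 of 8 passed the filter, leptin was at 0 in 8 of 10 pools, and the summed level was 10.8 to 28.7 FPKM in Nor, 32.5 to 36.0 in NCD, 12.5 to 22.8 in H1D, 12.9 to 16.9 in H2D and 9.30 to 15.0 in H3D. Macrophage and Kupffer cell markers, another known source, summed to 182 to 246 FPKM in Nor, 279 to 364 in NCD, 430 to 537 in H1D, 587 to 601 in H2D and 423 to 684 in H3D. Of the 14 macrophage markers, 3 rose in H2D and the same number in H3D against NCD (2.15% and 5.04% of all tested genes). Without either NCD pool or the second H2D pool 0 rose in H2D, and without the first H3D pool 6 rose in H3D. Their part in the Saa3 levels was not tested. In bulk liver, fewer cells of a type and less RNA per cell cannot be told apart.

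Among the orosomucoids, Orm1 was the abundant gene and Orm2 the one that moved most. For Orm1 the Nor pools read 745 and 645 FPKM, the NCD pools 618 and 601, the H1D pools 385 and 603, the H2D pools 1721 and 2108 and the H3D pools 1251 and 1833. The Orm2 values were 14.7 and 11.6 FPKM for Nor, 19.3 and 20.7 for NCD, 19.3 and 81.3 for H1D, 794 and 1311 for H2D and 338 and 504 for H3D. For both genes the H2D and H3D pools stood above all pools of the other groups. The H1D pools were split, with 1 pool of Orm2 at the NCD level and 1 pool well above it.

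Orm2 rose by 5.64 ± 0.57 on the log2 scale in H2D against NCD (limma adjusted p = 0.00468) and by 4.33 ± 0.57 in H3D against NCD (adjusted p = 0.00333). The ratios of means were 52.6 and 21.0. The rise in H2D was lost only without the second NCD pool (adjusted p = 0.0522), and the rise in H3D held in all 20 other settings. Orm1 rose by 1.64 ± 0.24 in H2D against NCD (adjusted p = 0.0153) and by 1.31 ± 0.24 in H3D against NCD (adjusted p = 0.0109). Without either NCD pool the Orm1 calls were lost in both comparisons. The call in H2D was also lost without its second pool, and the call in H3D without its second pool.

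For Orm3 the Nor pools read 3.21 and 1.81 FPKM, the NCD pools 3.68 and 1.62, the H1D pools 2.55 and 10.3, the H2D pools 11.2 and 11.9 and the H3D pools 9.41 and 6.90. It was higher in both H2D and both H3D pools than in the Nor and NCD pools. Its differences from NCD, 2.02 ± 0.56 on the log2 scale in H2D and 1.53 ± 0.56 in H3D, did not pass the test (limma adjusted p = 0.0966 and 0.110). Both were called with the compared groups fitted alone (adjusted p = 0.0295 and 0.0413) and without either H1D pool.

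The make-up of the orosomucoid signal changed with these levels. Orm1 held 97.7% and 98.0% of the summed Orm FPKM for Nor, 96.4% for both NCD pools, 94.6% and 86.8% for H1D, 68.1% and 61.4% for H2D and 78.2% for both H3D pools. The Orm2 share was 1.93% and 1.76% for Nor, 3.02% and 3.32% for NCD, 4.74% and 11.7% for H1D, 31.4% and 38.2% for H2D and 21.2% and 21.5% for H3D. Orm3 was at most 1.48% in any pool. These genes are similar in sequence, so the split of reads between them is uncertain. Their sum rose by 2.22 on the log2 scale in H2D against NCD (limma adjusted p = 0.00883) and by 1.61 in H3D against NCD (adjusted p = 0.00833).

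The pentraxins parted from each other. The Apcs values were 56.9 and 86.9 FPKM for Nor, 207 and 140 for NCD, 439 and 407 for H1D, 874 and 648 for H2D and 759 and 1385 for H3D. For Crp the Nor pools read 240 and 361 FPKM, the NCD pools 206 and 215, the H1D pools 204 and 257, the H2D pools 317 and 302 and the H3D pools 277 and 294. The Apcs pools did not overlap from Nor to NCD, from NCD to H1D or from H1D to H2D, whereas the H2D and H3D pools overlapped. Crp was nearly level, with the highest library 1.77-fold above the lowest. The ratio of Apcs to Crp FPKM was 0.237 and 0.241 for Nor, 1.00 and 0.651 for NCD, 2.15 and 1.59 for H1D, 2.75 and 2.14 for H2D and 2.74 and 4.71 for H3D.

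Apcs was the one member called higher in DEN-injected mice on chow. It rose by 1.27 ± 0.33 on the log2 scale in NCD against Nor (limma adjusted p = 0.0404), by 2.14 ± 0.33 in H2D against NCD (adjusted p = 0.0169) and by 2.58 ± 0.33 in H3D against NCD (adjusted p = 0.00301). In H1D against NCD its difference was 1.31 ± 0.33, which did not pass the test (adjusted p = 0.105). The call in H3D held in all 21 other settings, that in H2D was lost without any 1 of the NCD or H2D pools, and that in NCD against Nor held in 10 of 21. Crp differed from NCD by 0.55 ± 0.19 in H2D and by 0.44 ± 0.19 in H3D, neither past the test (limma adjusted p = 0.152 and 0.164). Both Crp differences were called with the compared groups fitted alone (adjusted p = 0.0225 and 0.0386) and without either Nor pool, and the one in H3D also with equal FPKM sums.

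**Figure D3:**
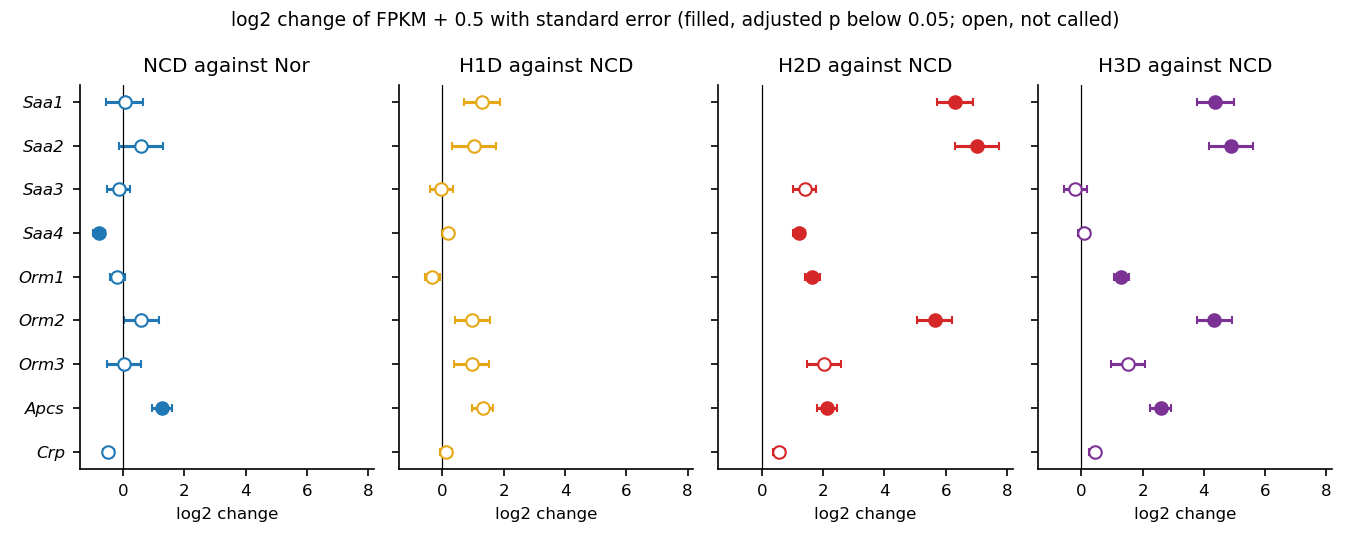
log2 change of FPKM + 0.5 with limma's standard error for the 9 genes in 4 comparisons, filled where the adjusted p was under 0.05 and open otherwise. Filled points number 2 in NCD against Nor, 0 in H1D against NCD, 6 in H2D against NCD and 5 in H3D against NCD.

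Counted over the 9 genes, NCD against Nor called 1 higher (Apcs) and 1 lower (Saa4), where 7.93% of all tested genes were called higher and 6.00% lower. The Saa4 call held in 9 of 21 other settings. It was lost after libraries were scaled to equal FPKM sums, which took the median of all genes to 0.16 on the log2 scale. H1D against NCD called 0 of 9 by limma, where 0.208% of all genes were called higher and 0.493% lower, and 1 of the 9 had an unadjusted p under 0.05. H2D against NCD called 6 higher and 0 lower (2.15% and 1.93% of all genes). H3D against NCD called 5 higher and 0 lower (5.04% and 9.87% of all genes). The median log2 change over the 9 genes was 2.02 in H2D and 1.53 in H3D, while the medians over all tested genes lay within 0.01 of 0 in both. The comparisons with NCD share the NCD pools. The count in H2D against NCD fell to 3 without the first NCD pool, 2 without the second and 3 without the second H2D pool.

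Between the high-fat groups, H2D against H1D called Saa1, Saa2, Orm1 and Orm2 higher and 0 members lower, in a comparison that called only 0.138% of all genes higher and 0.00865% lower. Saa2 was 5.98 ± 0.72 higher on the log2 scale, Saa1 5.02 ± 0.60, Orm2 4.66 ± 0.57 and Orm1 1.98 ± 0.24, each with a limma adjusted p of 0.0438. All 4 calls were lost with a pseudocount of 0.1, without a filter, and without either NCD pool, the first H1D pool or either H2D pool. The sum of Saa1 and Saa2 (5.45 higher) and that of the orosomucoids (2.47 higher) were not called in H2D against H1D (limma adjusted p = 0.0521 for both). H3D against H2D called 0 members by limma (0.0519% of all genes higher, 0.459% lower), and 4 of the 9 had an unadjusted p under 0.05. There Saa4 differed by -1.13 ± 0.19 (adjusted p = 0.0592), Saa1 by -1.93 ± 0.60 (adjusted p = 0.211) and Saa2 by -2.14 ± 0.72 (adjusted p = 0.252). H3D against H1D called Orm1 alone (1.65 ± 0.24, limma adjusted p = 0.0319), where 0.138% of all genes were called higher and 0.467% lower. That call was lost without either pool of NCD, H2D or H3D and without the first H1D pool.

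As a share of the whole mRNA signal, the 9 genes went from a trace to a visible part. They held 0.171% and 0.175% of summed mRNA FPKM for the Nor pools, 0.183% and 0.184% for NCD, 0.211% and 0.304% for H1D, 1.76% and 3.59% for H2D and 0.742% and 1.55% for H3D. Saa1 and Saa2 together accounted for 1.13% and 2.84% of it in H2D, against 0.0127% and 0.0212% in NCD. In the first H3D pool the orosomucoids held more, 0.281%, than Saa1 and Saa2, 0.261%.

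**Figure D4:**
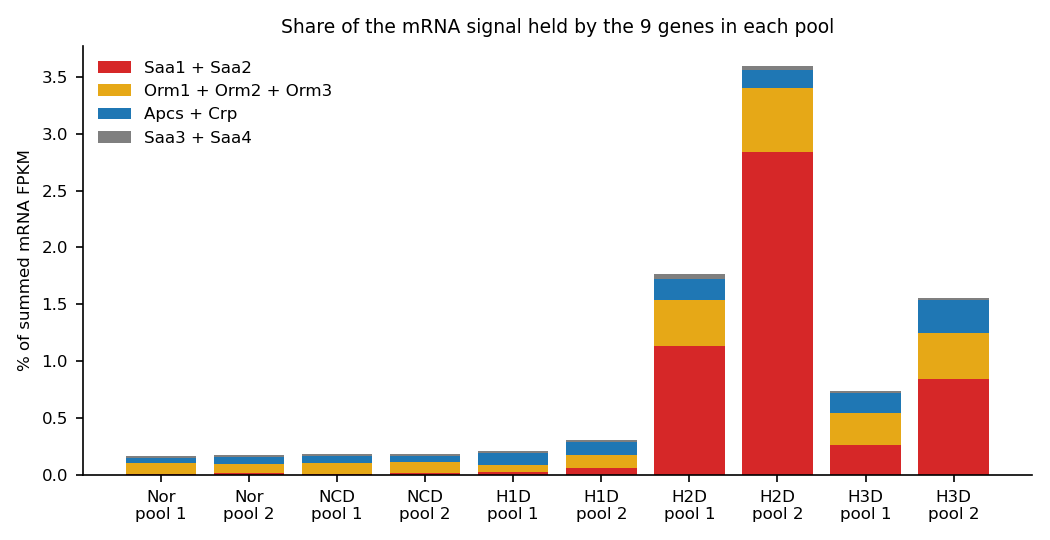
Stacked bars of the percent of summed mRNA FPKM held by Saa1 with Saa2, the 3 orosomucoids, Apcs with Crp, and Saa3 with Saa4 in each pool. The bars reach 3.59% in the second H2D pool and stay at or under 0.304% in all Nor, NCD and H1D pools.

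Of 18 neighbours, 3 on each side of a cluster, 11 were tested, of which 1 was called in H2D against NCD and 2 in H3D against NCD. Of all tested genes 4.08% and 14.9% were called in those comparisons, so the neighbours' counts were near the background. Around the serum amyloid A genes (Sergef, Tph1 and Saal1 on one side, Hps5, Gtf2h1 and Ldha on the other) 5 were tested and 0 were called in H2D or H3D against NCD. The closest to a call was Ldha, lactate dehydrogenase A, at 0.53 on the log2 scale in H2D (limma adjusted p = 0.0718). Beside the orosomucoids lie Ambp, Kif12 and Col27a1 and, on the other side, Akna, Whrn and Atp6v1g1. Ambp, the precursor of alpha-1-microglobulin, rose by 0.47 in H3D against NCD (adjusted p = 0.0293). Col27a1, a fibrillar collagen gene, fell by 1.41 in H2D and by 1.60 in H3D against NCD (limma adjusted p = 0.00468 and 0.000608), in the other direction than Orm1 and Orm2. It also fell by 0.80 in NCD against Nor and by 1.32 in H1D against NCD (limma adjusted p = 0.0111 and 0.0117), where neither Orm1 nor Orm2 was called. The pentraxins have Slamf8, Fcrl6 and Dusp23 on one side and the olfactory receptor genes Olfr16, Olfr1408 and Olfr1406 on the other. No protein-coding gene of the RefSeq table lies between Crp and Apcs, of which, as given above, only Apcs was called against NCD.

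**Figure D5:**
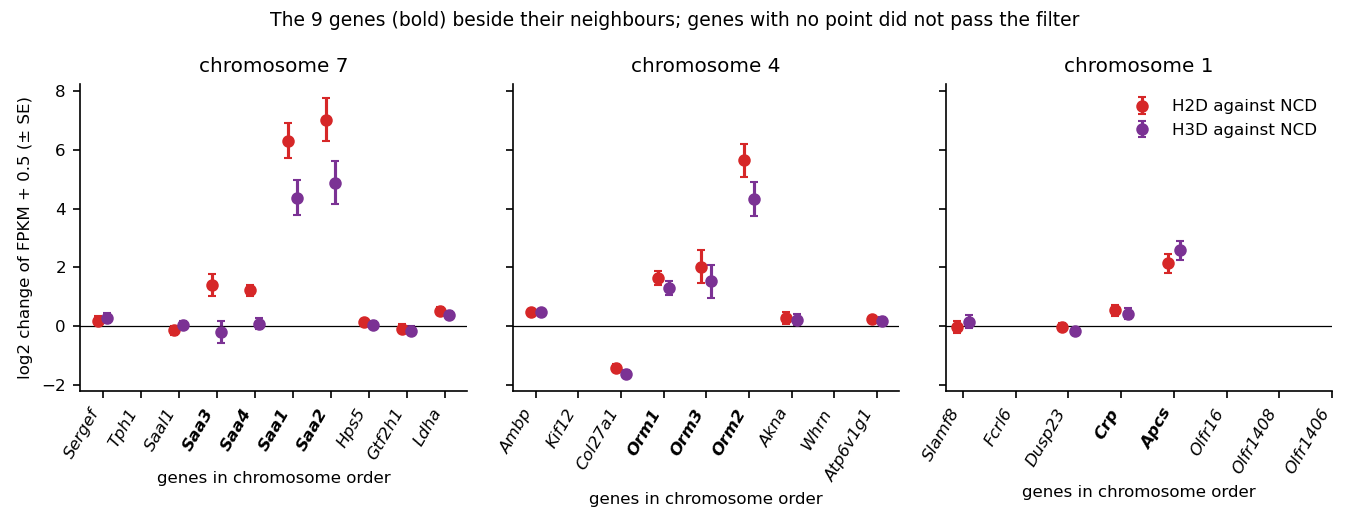
log2 change of FPKM + 0.5 with limma's standard error in H2D and H3D against NCD for the 9 genes, named in bold, and their 3 neighbours on each side in chromosome order. Saa1, Saa2, Orm2 and Apcs stand above 2 in both comparisons, while the tested neighbours lie between -1.60 and 0.53.

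The genes whose pattern over the 10 libraries was most like each member were named by the root mean square difference of centred log2 values, given as a description. Saa1 was closest to Orm2 (0.48) and Saa2 (0.49), although Orm2 lies on another chromosome, and then to Ngp (0.82). Saa2 was closest to Saa1 (0.49), Orm2 (0.68) and Ngp (0.96). For scale, Saa1 itself varied by 2.59 around its mean. The genes nearest Orm2 after Saa1 were Ngp (0.56) and Camp (0.67), which encode neutrophil granule proteins. Orm1 was closest to Chil1 (0.23), Tifa (0.29) and Cd177 (0.30), and Orm3 to Gm5483 (0.37), Sirpb1c (0.47) and Gpx3 (0.49). Ngp, Camp, Chil1, Cd177, Gm5483 and Sirpb1c would not have passed the filter on the Nor, NCD and H1D pools alone. They were thus in the search because they are high in H2D and H3D. Chil1 ran only from 0.045 to 1.46 FPKM, where the 0.5 added before the logarithm narrows the range. Apcs was closest to Fgl1 (0.45), an acute phase gene of the hepatocyte, Fabp4 (0.47) and Dnaic1 (0.47). Saa4 was closest to Rnase4 (0.21), Egfr (0.23) and C9 (0.23). Saa3 was closest to Pycard (0.39), Vsig4 (0.40), a Kupffer cell receptor, and Prepl (0.42), and Crp to Rusc2 (0.13), Cep85l (0.14) and Zdhhc14 (0.15).

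Neutrophil markers, like Saa1, Saa2 and Orm2, summed higher in every H2D and H3D pool than in any other pool. The 14 neutrophil markers summed to 4.40 and 14.4 FPKM for Nor, 35.4 and 13.5 for NCD, 24.3 and 125 for H1D, 514 and 619 for H2D and 351 and 997 for H3D. Of these markers 13 passed the filter, but 3 alone (S100a8, S100a9 and Prtn3) would have passed on the Nor, NCD and H1D pools, so no count of calls is given. S100a8, a calcium-binding protein abundant in neutrophils, read 1.58 and 4.59 FPKM for Nor, 13.0 and 4.40 for NCD, 8.79 and 49.9 for H1D, 215 and 249 for H2D and 132 and 418 for H3D. The H2D and H3D pools of S100a8 stood above all others. Mpo, the myeloperoxidase of neutrophil granules, was listed at 0 in both Nor pools and read 0.160 and 0.046 FPKM in NCD, 3.47 and 6.31 in H2D and 3.82 and 10.3 in H3D. The second H1D pool, which had the higher Orm2, Orm3, Saa1 and Saa2, also had the higher neutrophil sum. The second pools of Nor, H2D and H3D also had the higher Saa1, Saa2 and neutrophil sum. Their Orm2 was the higher in H2D and H3D and the lower in Nor. In NCD the second pool had the higher Saa1, Saa2 and Orm2 but the lower neutrophil sum. Summed neutrophil markers were higher in the second H3D pool than in either H2D pool, whereas Saa1, Saa2 and Orm2 were higher in both H2D pools. Erythroid markers summed to 510 to 551 FPKM in Nor, 634 to 758 in NCD, 578 to 1106 in H1D, 1533 to 2283 in H2D and 1368 to 3982 in H3D. Of the 7 erythroid markers, 1 rose in H2D and 4 in H3D against NCD (2.15% and 5.04% of all tested genes). The count in H2D was 0 without any 1 of the NCD, H1D or H2D pools, and that in H3D was 0 without the second NCD pool, 2 without the second H3D pool and 6 without the first. The part of these cells in the results was not tested.

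Other genes of the acute phase gave the following counts against NCD. Limma called 2.15% of all tested genes higher and 1.93% lower in H2D, and 5.04% higher and 9.87% lower in H3D. The 12 ligands of the interleukin-1, tumour necrosis factor and interleukin-6 families summed to 24.9 and 22.1 FPKM for the NCD pools, 24.6 and 29.4 for H2D and 22.9 and 24.4 for H3D. Of these, 6 were tested: Il18 (7.67 to 12.2 FPKM), Il1b (1.70 to 6.61), Il33 (0.583 to 5.65), Il1a (1.49 to 3.34), Ctf1 (1.10 to 3.01) and Clcf1 (0 to 1.37). Limma called 0 of the 6 in H2D or H3D against NCD. Il33 alone had an unadjusted p under 0.05, in H2D (0.53 on the log2 scale, adjusted p = 0.234). Among those under the filter, Il6 lay between 0.015 and 0.153 FPKM, Tnf between 0.151 and 0.560 and Osm, oncostatin M, between 0 and 0.115. Of 20 tested receptors and signal proteins, 5 rose in H2D and 5 rose and 1 fell in H3D. In H2D the count was 0 without either NCD pool or the second H2D pool and 2 without the first, and in H3D 3 rose without either NCD pool or the second H3D pool and 8 without either Nor pool. Osmr, the oncostatin M receptor, rose by 1.36 ± 0.15 on the log2 scale in H2D and by 1.55 ± 0.15 in H3D (limma adjusted p = 0.00605 and 0.00114). Stat3 rose by 0.84 ± 0.10 in H2D (limma adjusted p = 0.00625). Its levels were 28.0 and 28.4 FPKM in NCD, 48.2 and 53.7 in H2D and 48.1 and 44.6 in H3D.

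Against NCD, 2.15% of all tested genes rose in H2D, and 5.04% rose and 9.87% fell in H3D. Of 16 tested transcription factors of the response, 1 rose in H2D against NCD, and 2 rose and 1 fell in H3D. Of these 0 rose in H2D without either NCD pool or the second H2D pool, and 2 without either H3D pool. In H3D 0 rose and 0 fell without the second NCD pool, 1 rose and 0 fell without either H3D pool, 1 rose without either H1D pool, and 3 rose and 2 fell without either Nor pool. Nfkbiz, an NF-kB co-regulator induced by interleukin-1, rose by 1.36 ± 0.17 in H2D and by 1.10 ± 0.17 in H3D on the log2 scale (limma adjusted p = 0.00835 and 0.00532). Of 22 tested receptors and partners of the members, 5 rose in H2D, and 5 rose and 2 fell in H3D. In H2D 0 rose without the second NCD pool, 1 without the first NCD or second H2D pool and 2 without the first H2D pool. In H3D 0 rose without the second NCD pool, 1 without the first NCD or second H3D pool, and 3 without the first H3D pool, and 1 fell without either NCD pool or the second H3D pool. Apoa2, a main protein of the high-density lipoprotein that carries serum amyloid A, fell by 1.04 ± 0.16 in H3D (limma adjusted p = 0.00487).

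Other positive acute phase proteins were called in H1D as well as in H2D and H3D. Of 28 tested, limma called 5 higher in H1D against NCD, 20 in H2D and 21 in H3D, and 2 lower in H3D. Of all tested genes 0.208%, 2.15% and 5.04% were called higher in those comparisons, and 9.87% lower in H3D. The count in H1D was 0 without either NCD pool or the first H1D pool, and 8 without either Nor pool. In H2D it was 6 without either NCD pool or the second H2D pool and 10 without the first, and in H3D it ran from 15, without the second NCD pool, to 22. The number lower in H3D was 1 without the first NCD pool or the second H3D pool. Lcn2, lipocalin 2, gave 4.05 and 4.23 FPKM for Nor and 199 and 280 for NCD. Its levels were 709 and 745 FPKM for H1D, 1216 and 1803 for H2D and 2648 and 2471 for H3D. It rose by 2.64 ± 0.21 on the log2 scale in H2D and by 3.43 ± 0.21 in H3D against NCD (limma adjusted p = 0.00313 and 0.000151). Unlike Saa1 and Saa2, its H3D pools lay above its H2D pools. The list's median log2 change was 0.93 in H2D and 1.11 in H3D, while the medians over all tested genes lay within 0.01 of 0. Hamp and Hamp2, the hepcidin genes, were the 2 that fell in H3D. Of 16 negative acute phase proteins, 2 fell in H2D (1.93% of all tested genes), and 1 rose and 6 fell in H3D (5.04% and 9.87%). In H2D 0 fell without either NCD pool or the second H2D pool and 1 without the first H2D pool, and in H3D 4 fell without the first NCD pool and 3 without the second, where 0 rose. Ttr, transthyretin, fell by 1.01 ± 0.11 in H2D and by 1.26 ± 0.11 in H3D against NCD (limma adjusted p = 0.00583 and 0.000691).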

How the data were processed

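Long RNA of mouse liver was measured in 10 libraries, 2 pools for each of 5 groups. The authors deposited FPKM per transcript of the mRNA table (50660 transcripts). The submitters' processing notes name, without roles, the GRCm38 build, GATK, SAMtools 0.1.18, Picard 1.96, Cuffdiff and Cufflinks 2.1.1, TopHat2 2.0.9 and Bowtie2 2.0.6. Strand handling and the treatment of reads shared by similar genes are not given in the sources used here. Sequencing depth is unknown, so no counting interval was computed.

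Transcripts were summed to genes, and log2(FPKM + 0.5) was fitted with limma 3.58.1 in R 4.3.3 over all 10 libraries, with 1 coefficient per group, a variance trend, 5 residual degrees of freedom and two-sided Benjamini-Hochberg adjusted p within each of 7 comparisons. A gene was tested if 2 or more libraries held it at 1 FPKM or above. "Rose" and "fell" mark adjusted p under 0.05. The test was checked on simulated data. The labels do not tie pools to animals, so p-values measure only the spread between these pools, which may be partly technical. A permutation of 2 against 2 pools cannot go below p = 0.333.

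The members and the lists were chosen with earlier results of these data known. All 9 members, the 3 nearest patterns per member and the neighbours are named. For lists, the rule allows at most 3 called genes of smallest p in each, and a selection of these is named. The ligands, leptin, S100a8, S100a9, Prtn3, Mpo, Hamp and Hamp2 were named after their values were seen. Promoters came from RefSeq (GRCm38.p6) and were read and aligned with Biopython 1.88. Plots used Python 3.11.15 and matplotlib 3.10.9. Other settings were other pseudocounts, filters and scalings, a fit of the compared groups alone, a replicate block, each transcript tested, sums of similar genes and the loss of each pool, which was also run, as a choice made after seeing the data, for the counts over lists. Small RNA and noncoding tables were not used here. One result under the rule for named genes is not reported here.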

Additional observations from a re-analysis of the deposited data

How the results depend on the processing

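Over 63 single-gene results and 21 other settings, of which 10 leave out a pool, 1288 values were computed: 1146 kept their direction and their side of the threshold, 85 lost a call, 35 gained one, 22 uncalled values changed sign and 0 called values did. The number of members called without 1 pool ranged from 0 to 2 in NCD against Nor, 2 to 7 in H2D against NCD, 4 to 6 in H3D against NCD, 0 to 5 in H2D against H1D, 0 to 1 in H3D against H2D and 0 to 2 in H3D against H1D, and was 0 throughout in H1D against NCD. In NCD against Nor the count of 2 became 0 with no filter, with the compared groups fitted alone and with each transcript tested, and 1 with equal FPKM sums and with quantile scaling. In H2D against H1D the count of 4 became 0 with a pseudocount of 0.1, no filter, the compared groups alone, each transcript tested or family sums. In H3D against H2D the count of 0 became 1 with the stricter filter (mean of at least 5 FPKM) and with the compared groups alone. In H3D against H1D the count of 1 became 0 with no filter, the compared groups alone or each transcript tested, 2 with the stricter filter and 3 with quantile scaling. In H2D against NCD the count of 6 became 9 with the compared groups alone (Saa3, Orm3 and Crp added) and 4 with family sums. In H3D against NCD the count of 5 became 7 with the compared groups alone (Orm3 and Crp added), 6 with equal FPKM sums (Crp added) and 3 with family sums. In H2D and H3D against NCD the fall with family sums follows from the merging of similar genes. In H2D against H1D both sums missed the threshold (limma adjusted p = 0.0521 for each). Otherwise the cause was not tested. Scaling to equal FPKM sums moved the median of all genes by 0.20, 0.10, 0.10 and 0.20 on the log2 scale in NCD against Nor and in H1D, H2D and H3D against NCD, and the share of calls that were higher from 56.9% to 94.5%, 29.6% to 54.4%, 52.7% to 71.1% and 33.8% to 74.6%. Quantile scaling moved it to 71.9% in NCD against Nor and 47.0% in H3D against NCD.

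The labels do not pair pools by number. Differences between pools 2 and 1 correlated over genes at -0.05 to 0.23 between groups, above 0.1 in 4 of 10 group pairs, so the bar that every pair exceed 0.1 was not met. With a replicate block the members called numbered 1 in NCD against Nor, 2 in H3D against H2D, which were Saa1 and Saa2 (adjusted p = 0.0366 and 0.0474), and 4 in H3D against H1D. Saa1 and Saa2 were higher in pool 2 in all 5 groups. With unknown depth and 2 pools a group, low values such as those of Orm3 and Saa3 carry an unknown counting error.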
